A study of Mus musculus with 17 samples.

Results

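The layer 5 projection nuclei of the mouse neocortex were examined in single-nucleus RNA profiles made by sNucDrop-seq, in which each nucleus is caught in a droplet with a barcoded bead and its transcripts are counted as unique molecular identifiers (UMIs). Members were chosen by the detected UMIs of 9 genes: a nucleus was a member if at least 3 of Fezf2, Parm1, Tox, Bcl11b, Vat1l, Tcerg1l, Npr3, Gm2164 and Gm19410 had 1 or more UMI. It also had to lack any UMI of the interneuron genes Gad1 and Gad2 and of Rprm, Syt6, Deptor and Rgs9, of which Rprm and Syt6 mark layer 6 corticothalamic neurons and Rgs9 marks striatal neurons. Of the 31486 nuclei with 600 to 5000 detected genes and under 5% mitochondrial UMIs, 975 met this rule, which is 3.10% of them. The rule read the same UMIs that are described here, so the levels of the 9 genes, and all differences in level between members and other nuclei, are given as descriptions with no test.

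The nuclei came from 4 control and 4 chronic unpredictable stress (CUS) mice, all C57BL/6 males (C57BL/6J in the study's methods) of postnatal day 80. CUS mice received 3 stressors a day for 12 days, while controls lived in another room and were handled gently each day. Neocortex was frozen 24 hours after the last stressor. Each library is labelled as a separate replicate of its group. Bulk nuclear RNA-seq of the medial prefrontal cortex (mPFC) from 4 control and 5 CUS mice of postnatal day 90 served as a second readout for the genes named below. By the study's methods the bulk mice had also gone through behavioural tests and were taken 24 hours after the last of these.

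Pyramidal neurons of layer 5 carry the output of the neocortex. One class sends axons to the spinal cord, brainstem and thalamus, and another reaches the opposite hemisphere and the striatum. Fezf2, a zinc finger transcription factor, sets the subcerebral fate during development, and Bcl11b, which acts downstream of it, is needed for corticospinal axons to grow. In the prefrontal cortex such neurons carry glucocorticoid and mineralocorticoid receptors, through which circulating corticosterone reaches transcription.

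Per mouse, the nuclei kept held between 6074138 and 15459579 UMIs, and 27 of 31455 distinct barcodes occurred in 2 or more libraries. The controls, by replicate from 1 to 4, gave 97, 172, 175 and 72 members, and the CUS mice, in the same order, gave 84, 108, 121 and 146. Together they held 4316362 UMIs. A member had a median of 3953 UMIs and 2122 genes, against 2056 UMIs and 1298 genes in the other nuclei, so the rule took deeper nuclei. A rebuilt Scrublet score marked 15.4% of members and 15.3% of the other nuclei as possible doublets, and 143 members had 2 or more markers of another cell type, in 114 of them oligodendrocyte markers. These nuclei were kept, and results without them are given where they differ. In 2 control and 2 CUS libraries (replicates 2 and 3 of control, 3 and 4 of CUS) 0.604% to 0.703% of UMIs were mitochondrial, against 0.344% to 0.465% in the other 4. UMIs are molecules counted once each, so all intervals printed cover counting error or the spread between mice, and nothing else.

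Detection of the rule genes in the members was incomplete, as is usual at this depth. Tox, a nuclear factor of the HMG-box family, had a UMI in 80% of members, Bcl11b in 62.3%, Gm19410 in 55.8%, Parm1 in 53.8% and Fezf2 in 34.97%. Gm2164, Npr3 (the clearance receptor for natriuretic peptides), Vat1l and Tcerg1l had one in 32.4%, 31.5%, 24.3% and 22.9%. UMIs of these genes also occurred in nuclei that should lack them. Among 1875 nuclei with 2 or more oligodendrocyte markers and no Slc17a7, Gad1 or Gad2 (median 1680 UMIs), Fezf2 had a UMI in 3.41%, Parm1 in 9.55%, Tox in 17.2% and Bcl11b in 12.2%. In the nuclei outside the rule as a whole these shares were 3.91%, 8.05%, 20.7% and 18.0%, at a median of 2056 UMIs. All 4 genes were thus seen more often in members, by selection. The nuclei outside the rule were not all alike, since Fezf2 made up 52.0 CPM (UMIs of a gene on the counts-per-million scale of its library) in the layer 6 nuclei described below and 5.80 in the layer 2/3 nuclei, and Bcl11b 142 and 28.6.

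The most frequent set of rule genes was Tox, Bcl11b and Gm19410 with no other, in 47 members, followed by Fezf2, Tox and Bcl11b in 42. Tox and Bcl11b were detected together in 470 members, or 48.2%. Of the 341 members with Fezf2, 81.2% also had Tox.

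Nuclei were then ordered by how many rule genes they showed, to see what lay on either side of the threshold of 3. Excluded genes were at 0 in all of these nuclei, which numbered 1649 with 2 rule genes and 489 with 3. Etv1, an ETS factor used as a layer 5 marker and not part of the rule, stood at 103 CPM with 2 rule genes and at 170 with 3, and reached 233 with 5. Pou3f1, a POU factor of subcerebral neurons, was at 12.9 with 2, 23.2 with 3, 51.4 with 4 and 80.2 with 5. Cux2, an upper-layer factor, went the other way, at 94.6 with none, 29.4 with 3 and 8.91 with 5. Nuclei with 3 rule genes therefore held intermediate levels of these genes. Median depth followed the same order, with 1630 UMIs at no rule gene, 3470 at 3 and 4501 at 5, and its part in the gradient was not tested.

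**Figure D1:**
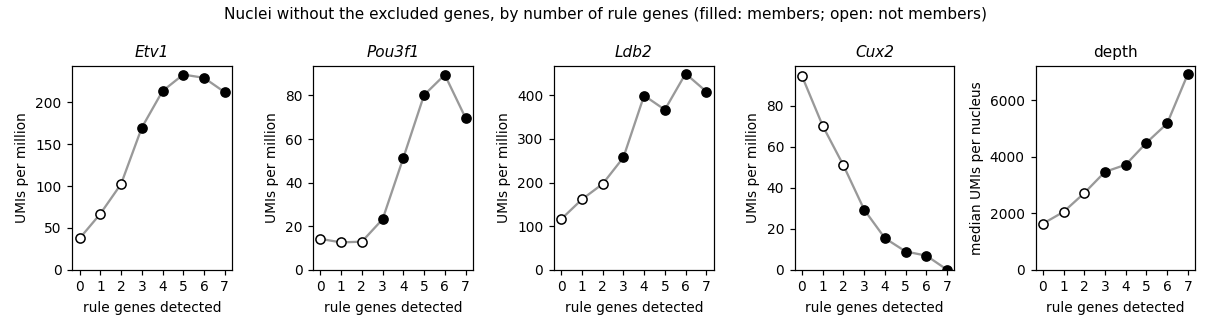
Level of 4 genes outside the rule in CPM (y axes) and median UMIs per nucleus (last panel) against the number of rule genes detected (x axes, 0 to 7), in nuclei without the excluded genes; filled points are members. Etv1, Pou3f1, Ldb2 and depth are higher at 5 rule genes than at 2, and Cux2 is at 94.6 with 0 and at 8.91 with 5.

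All 9 rule genes were present in every mouse, and for all 9 the control and CUS mice overlapped. Fezf2 was at 121, 86.0, 112 and 112 CPM in control replicates 1 to 4 and at 123, 72.4, 95.3 and 115 in CUS replicates 1 to 4. Parm1 lay at 210, 241, 187 and 199 in controls and at 195, 375, 238 and 209 in CUS mice, with CUS replicate 2 above all others. Tcerg1l was at 78.8, 48.2, 79.1 and 80.7 in controls and at 76.5, 114, 70.4 and 62.7 in CUS mice. Control replicate 2 was the low value for Tcerg1l, and CUS replicate 2 the high one.

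Levels of other genes were also set out by whether a member showed a given rule gene. The rule asks for any 3 of the 9 genes, so members without a gene had to show others, and the values are a description only. The 341 members with Fezf2 had 406 CPM of Ldb2, a LIM-domain cofactor of corticospinal neurons, against 299 in the 634 without. They had 180 of Tshz2, a marker of near-projecting neurons, against 113, and 83.4 of the layer 6 factor Foxp2 against 43.7. Rorb, a layer 4 and upper layer 5 factor, was lower with Fezf2, at 77.5 against 120. The 525 members with Parm1 showed 60.4 of Pou3f1 against 30.8 and 9.72 of Cux2 against 30.3. Gm2164 also went with Pou3f1, at 73.0 in the 316 with it and 33.2 without, and with Bcl6, a repressor found in subcerebral neurons, at 63.5 against 29.9. Members with Npr3 or Gm19410 were low in Tshz2, at 74.3 against 171 and at 91.9 against 201. These sums share their libraries, and members with a rule gene differed in depth from those without (4275 against 3645 UMIs for Parm1).

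Genes outside the rule bore on the layer 5 label. Of 20 corticospinal and layer 5 genes, 15 had enough UMIs in the members. This filter, set on members alone, leaves out genes low there, and it also held for all genes counted here. Of these 15, 12 were above layer 2/3 nuclei in 8 of 8 mice (Pou3f1, Crym, Ldb2, Etv1, Bcl6, Crim1, Cntn6, Cdh13, Pcp4, Sulf2, Nefh and Nefm), where 9.14% of all genes were. Against layer 6 nuclei 9 of 15 were (7.91% of all genes) and 2 were below, Pcp4 and Igfbp4 (7.4%), and against all other nuclei 8 of 15 (7.17%). The comparison nuclei, all without Gad1, Gad2 and Rgs9, were 3544 with at least 2 of the layer 2/3 genes Cux2, Rasgrf2, Calb1 and Enpp2 and 1806 with at least 2 of the layer 6 genes Rprm, Syt6, Foxp2 and Hs3st4. Members were in neither set, and nuclei of the layer 2/3 set were left out of the layer 6 set. Of the callosal and upper-layer genes, 6 of 9 were below all other nuclei in 8 of 8 mice, where 8.41% of all genes were, and none was above. Against layer 6 nuclei 3 of 9 were above (Rasgrf2, Calb1 and Enpp2, beside 7.91% of all genes) and none below. These 3 genes helped to choose the layer 2/3 nuclei, which the layer 6 set leaves out, so the choice of nuclei favours this count.

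Etv1 stood at 189 ± 34.3 CPM in members (mean ± SD over 8 mice), at 31.9 in layer 2/3, 56.7 in layer 6 and 56.0 in all other nuclei. Pou3f1 was at 46.8 ± 10.3, against 12.1, 5.42 and 14.2 in the same order. Ldb2 was at 334 ± 50.7, against 138, 197 and 140. Crym, a thyroid hormone binding protein of corticospinal neurons, differed clearly from layer 2/3 but little from layer 6, with 135 ± 12.7 against 36.2 and 109. Cux2 was at 18.3 against 194 in layer 2/3, and Foxp2 at 52.1 against 564 in layer 6. Both genes had served to choose those comparison nuclei, so these gaps follow from that choice. Of 7 layer 6 corticothalamic genes, 4 were above layer 2/3 in 8 of 8 mice (9.14% of all genes) and 1 was below (8.23%). Their summed level was 842 CPM in members, 452 in layer 2/3, 2921 in layer 6 and 903 in all other nuclei. The sum includes Foxp2 and Hs3st4, which helped to choose the layer 6 nuclei. Its gap to layer 6 follows in part from that choice. Near-projecting genes summed to 326 in members, 163 in layer 2/3, 227 in layer 6 and 236 in all other nuclei. Pcp4, a calmodulin-binding peptide of deep layers, was at 203 ± 75.9, above the 92.8 of layer 2/3 and below the 474 of layer 6.

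By the ratio of members to all other nuclei, 42 genes were detected in at least 10% of members and 1.5 times higher in every mouse. The leading 10 were Gm6260, Adam18, L3mbtl4, 6430573F11Rik, Coro6, Etv1, Npnt, Pou3f1, Bcl6 and Dnah9, with ratios of 6.27 down to 3.18. Coro6, a coronin that binds actin, was at 79.7 ± 34.6 CPM against 22.3, and it ranged from 31.0 to 137 across mice.

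Ion channel and receptor genes also set the members beside the other nuclei. Of 44 voltage-gated and related channels, 8 were above layer 2/3 in 8 of 8 mice (9.14% of all genes) and 10 below (8.23%). Against layer 6 nuclei 11 were above (7.91% of all genes) and 6 below (7.4%). Kcnn2, Cacna1h and Scn1a were among those above all 3 comparison sets. Kcnn2, a calcium-activated SK potassium channel, was at 350 ± 60.1 CPM, against 74.4 in layer 2/3 and 211 in layer 6. Pex5l was at 1553 ± 136 against 517 and 610. Kcnc1 and Kcnc2, the Kv3 channels of fast-spiking cells, were at 42.2 and 109 in members and at 137 and 342 in all other nuclei. In layer 2/3 nuclei they were at 98.3 and 299, and in layer 6 nuclei at 61.7 and 96.6.

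Of 20 glutamate receptor genes, 9 were above all other nuclei in 8 of 8 mice (7.17% of all genes) and 3 below, Gria4, Grik1 and Grm3 (8.41% of all genes). Gria1, Grik2 and Grm5 were also above layer 2/3 and layer 6. Gria1, an AMPA receptor subunit, was at 1012 ± 111 CPM against 670 in layer 2/3, and Gria4, another, at 729 ± 126 against 1153. Among 29 axon guidance genes, 13 were above layer 2/3 (9.14% of all genes) and 12 above layer 6 (7.91%), and 3 were below each. The receptors Unc5c, Robo1, Robo2, Epha5 and Epha6, the gene of netrin-G1, Ntng1, and the ligand gene Slit2 were above all 3 sets. Ntng1 was at 428 ± 89.1, against 148 in layer 2/3 and 93.3 in layer 6. The mineralocorticoid receptor Nr3c2 was at 222 ± 32.5, against 121 and 69.4, whereas the glucocorticoid receptor Nr3c1 was at 149 ± 26.6, against 185 and 203.

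**Figure D2:**
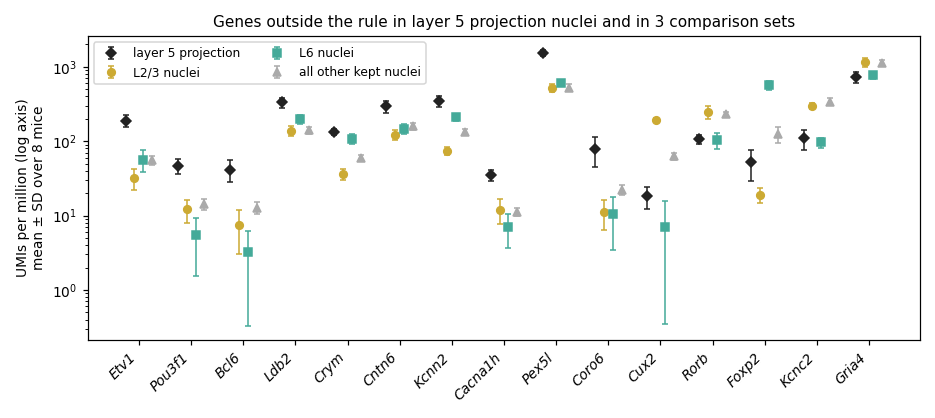
CPM on a log axis (mean ± SD over 8 mice) of 15 genes outside the rule in layer 5 projection nuclei, L2/3 nuclei, L6 nuclei and all other kept nuclei. Etv1, Pou3f1, Bcl6, Ldb2 and Pex5l are highest in the layer 5 nuclei, Cux2 and Rorb are lower there than in L2/3 nuclei, and Foxp2 is lower than in L6 nuclei.

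Markers of other cell types were lower in members than in all other nuclei but not absent. Their sums were 375 CPM for 10 interneuron markers against 1493 in all other nuclei, 720 against 1635 for 12 astrocyte markers, 370 against 928 for 8 oligodendrocyte markers, and 736 against 1249 for 10 striatal markers. The rule leaves out nuclei with Gad1, Gad2 or Rgs9, so the interneuron and striatal gaps follow in part from it. In layer 2/3 and layer 6 nuclei, which also lack these genes, interneuron markers summed to 530 and 319. Striatal markers summed there to 736 and 876, so they were not low in members beside these sets. Lamp5, counted among the interneuron markers and also present in upper-layer pyramidal neurons, was higher in members, at 170 against 127 in all other nuclei and 251 in layer 2/3 nuclei. Slc17a7, the vesicular glutamate transporter of cortical excitatory neurons, had a UMI in 50.6% of members and 30.3% of the others. Its level was 192 ± 35.5 CPM in members and 175 ± 41.5 in the others.

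The share of layer 5 projection nuclei did not separate the stressed from the control mice. Of the nuclei kept, members made up 2.81%, 3.56%, 3.53% and 3.18% in the controls, by replicate from 1 to 4, and 2.07%, 3.13%, 3.36% and 3.00% in the CUS mice. The groups overlapped, with CUS replicate 1 lowest (95% exact binomial interval 1.66% to 2.56%). The mean was 3.27% ± 0.351 in controls and 2.89% ± 0.564 in CUS mice (SD, n = 4), a difference of -0.382 points (exact permutation test, two-sided, p = 0.314, where the smallest p possible is 0.0286). Members of control mice had a median of 4100 ± 468 UMIs and those of CUS mice 3828 ± 672 (SD, n = 4, exact permutation p = 0.6). When each nucleus was thinned to 1000 UMIs, 272 of 28791 nuclei met the rule (211 of them members before thinning), and the difference turned to 0.0633 points in favour of CUS mice (exact permutation p = 0.686). Thinning left out 1003 control and 1692 CUS nuclei that had fewer UMIs.

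Another denominator gave another picture. Among nuclei with Slc17a7 and without Gad1 or Gad2, members made up 6.30%, 7.44%, 7.36% and 7.83% in the controls, by replicate, and 4.04%, 5.67%, 5.63% and 4.97% in the CUS mice. All CUS mice lay below all control mice. The means were 7.23% ± 0.652 and 5.08% ± 0.760 (SD, n = 4), a difference of -2.15 points with the smallest p this design allows (exact permutation test, two-sided, p = 0.0286). The p was not adjusted for the other denominators tried, all nuclei kept and thinned nuclei, which showed no such separation. Several values moved with it. Slc17a7 nuclei without Gad1 or Gad2 were 24.0% ± 3.19 of the nuclei kept in controls and 27.9% ± 6.08 in CUS mice, and Slc17a7 in all nuclei kept was at 157 ± 29.8 and 195 ± 45.1 CPM (SD, n = 4 each). After thinning to 1000 UMIs, this share was 1.08%, 1.05%, 1.10% and 0.380% in controls and 0.347%, 0.822%, 0.370% and 0.517% in CUS mice, with 1 to 7 member nuclei in each mouse. The groups then overlapped through control replicate 4 (difference -0.389 points, exact permutation p = 0.0857).

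**Figure D3:**
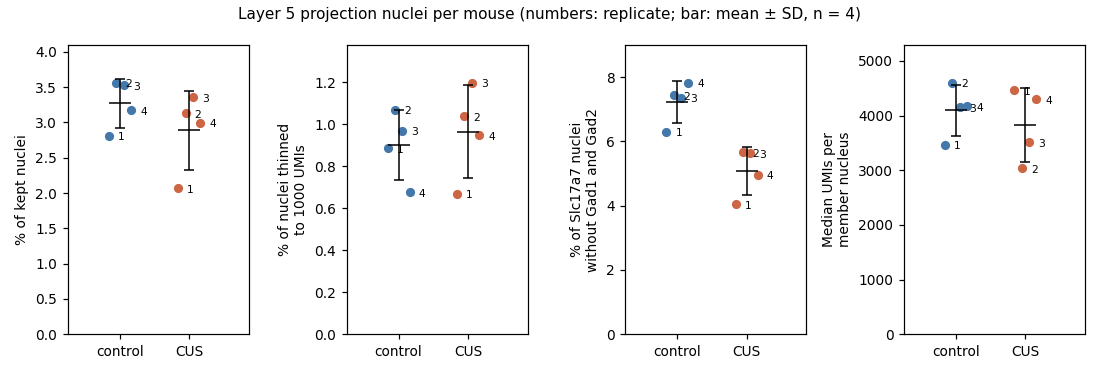
Layer 5 projection nuclei in each mouse (points, numbered by replicate; bars, mean ± SD, n = 4) as a percent of nuclei kept, of nuclei thinned to 1000 UMIs, and of Slc17a7 nuclei without Gad1 and Gad2, with median UMIs per member on the right. The groups overlap in all panels except the third from the left, where CUS mice lie at 4.04% to 5.67% and controls at 6.30% to 7.83%.

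Whether CUS changed transcription within the members was tested on UMIs summed per mouse. The fit held no batch term, because the labels give no batch per mouse. The study reports a marked batch effect in its nuclei and fitted batch beside group. In the fit without batch, no gene passed. Of 7193 genes with summed UMIs above 97.5 (10% of the number of members), edgeR's quasi-likelihood test called 0 at an adjusted p (FDR) of 0.2, which is 0% of those tested, and the lowest FDR was 0.564. At an unadjusted p under 0.05 there were 494 genes (6.87%), 234 higher (3.25%) and 260 lower (3.61%). DESeq2 also called 0, with 257 genes at an unadjusted p under 0.05, and edgeR's likelihood ratio test called 1, 1700016P03Rik. The count was 4 without control replicate 1 (Alcam, Coro6, Ndst4 and Tmem44), 1 without control replicate 3 (1700016P03Rik) and 5 without CUS replicate 2 (Alcam, Celf5, Lsamp, Mgat4c and Mir124a-1hg). With a term for mitochondrial share, added after seeing the data, the quasi-likelihood test called 0 and the likelihood ratio test 23, 10 higher and 13 lower. The standard error of a log2 fold change had a median of 0.23, and the absolute log2 fold change a median of 0.16.

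Values in the 2 groups of mice did not overlap for 262 genes (3.64%), 124 higher (1.72%) and 138 lower (1.92%) in CUS mice. Of the 5 per direction with the smallest p, 5 higher and 4 lower genes are described next, in CPM scaled by TMM factors, which even out library composition. None passed the FDR of 0.2 (edgeR quasi-likelihood FDR 0.564 for each), each kept its sign under all 22 or more alternatives run for it, and each was called in at least 1 of these. For all but 1700016P03Rik and Alcam the only such call came from the likelihood ratio test with the term for mitochondrial share, which was added after seeing the data. Over the alternatives the FDR of 1700016P03Rik ran from 0.00209 to 0.988 and that of Alcam from 0.0984 to 0.988.

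The noncoding transcript 1700016P03Rik (ENSMUSG00000085609, mm10 chr11:75172560-75177633), host of Mir212 and Mir132, was at 18.8, 15.99, 46.3 and 28.7 CPM in control replicates 1 to 4 and at 123, 77.5, 46.9 and 52.7 in CUS replicates 1 to 4. The groups were parted by a narrow gap between control replicate 3 and CUS replicate 3, for a log2 fold change of 1.35 (SE 0.31). Dbn1, which encodes the actin-binding spine protein drebrin, was at 59.0, 36.6, 54.9 and 44.6 in controls and at 114, 85.8, 75.4 and 76.9 in CUS mice. CUS mice were higher throughout (log2 fold change 0.86, SE 0.22). Irf3, a transcription factor of the interferon response, was at 13.4, 17.1, 12.2 and 15.9 in controls and at 46.0, 30.4, 26.5 and 35.6 in CUS mice. Its control values were tight and its UMIs few, 103 in all (log2 fold change 1.22, SE 0.31). Cntn2, the axonal adhesion molecule contactin-2, was at 26.8, 22.8, 37.8 and 22.3 in controls and at 53.3, 38.7, 71.4 and 57.0 in CUS mice, with control replicate 3 just under CUS replicate 2 (log2 fold change 0.98, SE 0.26). Nrip3 was at 102, 77.7, 71.9 and 86.0 in controls and at 138, 125, 104 and 140 in CUS mice, with control replicate 1 just under CUS replicate 3 (log2 fold change 0.63, SE 0.18).

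Among the lower genes, Alcam, an immunoglobulin-type adhesion molecule of axons (ENSMUSG00000022636), was at 260, 368, 323 and 369 CPM in control replicates 1 to 4 and at 174, 252, 247 and 181 in CUS replicates 1 to 4. Control replicate 1 lay just above CUS replicate 2 (log2 fold change -0.64, SE 0.16). Atf2, a transcription factor of the ATF/CREB family, was at 236, 204, 188 and 239 in controls and at 138, 158, 133 and 145 in CUS mice. CUS mice were close together and all below the controls (log2 fold change -0.58, SE 0.15). Necab1, a neuronal calcium-binding protein, was at 115, 129, 107 and 194 in controls and at 84.7, 58.1, 102 and 69.8 in CUS mice (log2 fold change -0.74, SE 0.20). Otud7b, a deubiquitinating enzyme, was at 107, 91.4, 79.2 and 115 in controls and at 72.6, 38.7, 61.2 and 51.3 in CUS mice (log2 fold change -0.76, SE 0.21). For both, the groups were parted by less than the spread within either.

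**Figure D4:**
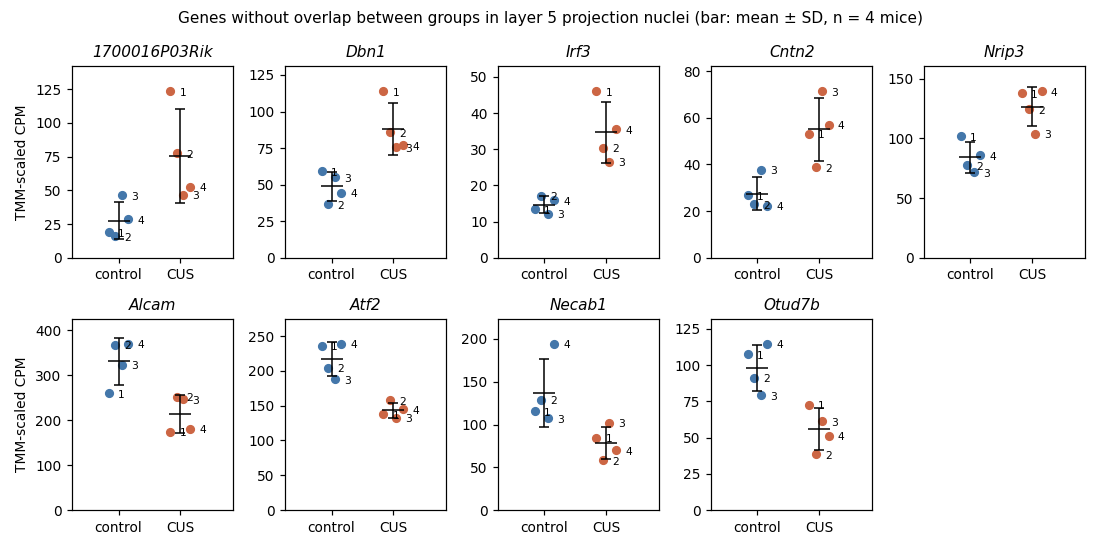
TMM-scaled CPM in layer 5 projection nuclei of each mouse (points, numbered by replicate; bars, mean ± SD, n = 4) for 9 genes without overlap between groups, from the 5 per direction with the smallest p; the upper row is higher and the lower row lower in CUS mice. The gap between groups is narrowest for 1700016P03Rik (46.3 against 46.9) and wide for Irf3 (17.1 against 26.5).

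Lists of genes of these neurons were described by counts, beside the same counts over all genes tested: 50.4% of genes had a log2 fold change above 0, and the median was 0.003. No gene of any list passed the FDR of 0.2. Genes of layer identity lay on both sides. Of 6 near-projecting genes 3 could be tested, and these 3 were below 0, with a median of -0.35. Of them, 1 had an unadjusted p under 0.05, beside 3.61% of all genes that were lower at this p. The summed level of all 6 in members was 291 to 509 CPM in controls and 199 to 373 in CUS mice, without TMM factors as for all list sums. Of 15 corticospinal and layer 5 genes, 11 were above 0, with a median of 0.14. Higher at an unadjusted p under 0.05 were 2 (Nefh and Nefm), beside 3.25% of all genes. The neurofilament genes Nefh and Nefm had log2 fold changes of 0.67 and 0.43, and Bcl6 of 0.46. Nefh was at 42.9, 27.4, 59.7 and 22.3 CPM in controls and at 77.5, 38.7, 59.1 and 72.6 in CUS mice, so its groups overlapped.

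Of 12 callosal and upper-layer genes 9 could be tested, and these 9 were below 0 in CUS mice. Their median was -0.28, and 3 had an unadjusted p under 0.05 (3.61% of all genes were lower at this p). Enpp2, the secreted enzyme autotaxin, was at 156, 101, 198 and 127 CPM in controls and at 79.9, 83.0, 89.7 and 101 in CUS mice (log2 fold change -0.70). Cux1, an upper-layer factor, was at 42.9, 83.4, 64.6 and 63.7 in controls and at 43.6, 38.7, 53.0 and 39.9 in CUS mice (log2 fold change -0.59). Calb1, the calcium buffer calbindin, was at 24.1, 91.4, 43.9 and 35.03 in controls and at 33.9, 24.9, 36.7 and 24.2 in CUS mice (log2 fold change -0.86). Each of these overlapped between groups, and control replicate 2 was far above the rest for Calb1. The summed level of the 12 genes was 1058 to 1269 CPM in controls and 851 to 1132 in CUS mice. The sum of the 4 genes that chose the layer 2/3 nuclei (Cux2, Rasgrf2, Calb1 and Enpp2) was 242 to 339 in the controls and 153 to 215 in the CUS mice, with no overlap. Other list sums in members also did not overlap, in CPM without TMM factors, which ran from 0.935 (CUS replicate 2) to 1.05 (CUS replicate 4). Yy1, Ctcf and cohesin genes summed to 1124 to 1191 in controls and 1041 to 1112 in CUS mice. This sum did not overlap in layer 6 nuclei either (1271 to 1333 and 1183 to 1252), but did in layer 2/3 nuclei. The genes the study names summed to 6856 to 7376 and 6002 to 6777. Syt1 made up most of this, at TMM-scaled means of 4028 and 3689, with overlap between groups. These gaps are shown on unscaled counts only, and the sums of the remaining lists overlapped. Of single genes, 3.64% did not overlap, on the TMM scale. In CUS mice, oligodendrocyte markers summed to 168 to 506 in members, against 249 to 522 in controls, and interneuron markers to 287 to 474 against 331 to 413, so both overlapped.

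Of 44 channel genes, 19 were above and 25 below 0, and 2 higher and 6 lower ones had an unadjusted p under 0.05, where 3.25% and 3.61% of all genes did. Kcnj3, the GIRK1 potassium channel, was at 268, 378, 324 and 395 CPM in controls and at 148, 260, 263 and 248 in CUS mice, below all controls (log2 fold change -0.57). Kcna2, the axonal Kv1.2 channel, was at 88.5, 113, 92.7 and 105 in controls and at 172, 122, 151 and 141 in CUS mice, above all controls (log2 fold change 0.54). Kcnc1 had a log2 fold change of -0.73, with overlap between groups. Of 20 glutamate receptor genes, 15 were below 0, 4 of them at an unadjusted p under 0.05 (Grin3a, Grik4, Grm3 and Grm8, beside 3.61% of all genes), and none was above 0 at this p. The median of this list was -0.06. Grik4, a kainate receptor subunit, was at 45.6, 56.0, 54.9 and 57.3 in controls and at 14.5, 49.8, 36.7 and 34.2 in CUS mice (log2 fold change -0.68), with CUS replicate 1 lowest and CUS replicate 2 within the controls. Grin3a and Grm3 had log2 fold changes of -0.58 and -0.44.

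Receptors of neuromodulators split evenly, 7 above and 7 below 0. The muscarinic receptor gene Chrm2 was at 45.6, 50.3, 39.0 and 35.03 CPM in controls and at 29.1, 24.9, 30.6 and 18.5 in CUS mice, below all controls (log2 fold change -0.78). Htr2c, a serotonin receptor gene, had a log2 fold change of -0.89 and Adra1b, an adrenergic receptor gene, of 0.72, both with overlap between groups. Among 32 synaptic scaffold and adhesion genes, 18 were above and 14 below 0, with a median of 0.02, and the values of Iglon5 and Homer2 were 0.67 and 0.53. Of 29 axon guidance genes, 13 were above and 16 below 0, with a median of -0.06, and Dcc and Unc5d, both netrin receptors, were at -0.48 each. Unc5a, of the same family, was at 0.53.

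Of 17 activity-regulated genes 12 were above 0, with a median of 0.25 and 3 higher at an unadjusted p under 0.05 (Nr4a1, Vgf and Egr1, beside 3.25% of all genes). In the bulk mPFC described below, the same 17 genes had a median of -0.24, with 2 called higher and 5 lower. Over all genes in bulk, 1.16% were called higher and 2.13% lower. The bulk samples hold all cell types of another region, from other mice of another age taken after behavioural tests. Within the neocortex nuclei, the 36 genes of this list summed to a mean of 1215 CPM in control and 1428 in CUS members. In all other nuclei the means were 1312 and 1583, with overlap between groups in both sets. Nr4a1, an immediate early nuclear receptor, was at 64.4, 35.4, 52.4 and 57.3 CPM in controls and at 82.3, 80.3, 77.5 and 79.7 in CUS mice, above all controls (log2 fold change 0.68). Egr1, a zinc finger immediate early factor, was at 51.0, 72.0, 106 and 73.3 in controls and at 109, 99.6, 99.9 and 117 in CUS mice (log2 fold change 0.44, SE 0.20), with overlap through control replicate 3. The log2 fold changes of Vgf and Btg2 were 0.61 and 0.55. Glucocorticoid receptors and targets showed 6 of 11 above 0 and none at an unadjusted p under 0.05. Per1, Hspa8 and Fkbp5 had log2 fold changes of 0.41, 0.35 and 0.17. Of the lists with fewer tested genes some were farther from 0, with a median of -0.38 over 5 interneuron markers and of 0.45 over 3 claustrum markers. Of 8 astrocyte markers tested in the members, 8 were above 0 with a median of 0.21, and 2 were higher at an unadjusted p under 0.05, beside 3.25% of all genes. The summed level of the 12 astrocyte markers was 536 to 907 CPM in controls and 616 to 862 in CUS mice, and its part in the other values was not tested.

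**Figure D5:**
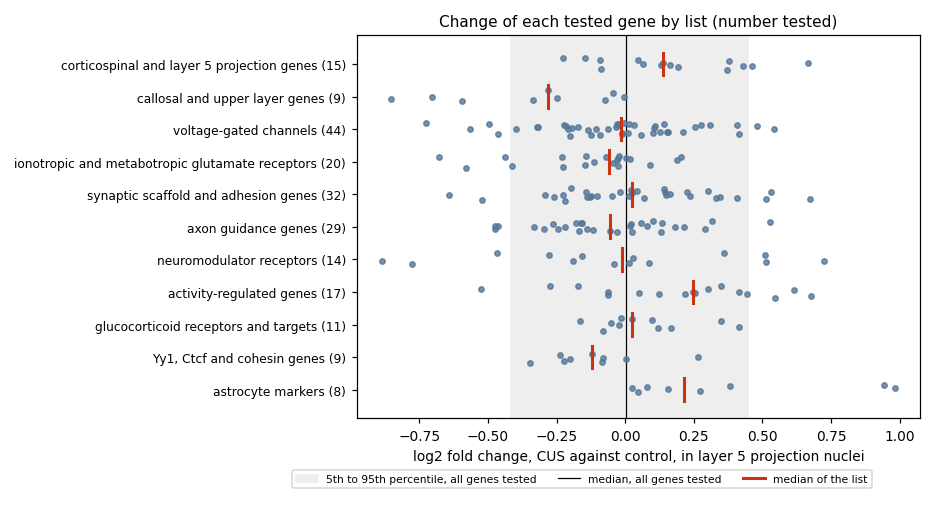
Log2 fold change (CUS against control, x axis) of each tested gene of 11 lists in layer 5 projection nuclei, with the list median in red and the 5th to 95th percentile of all genes tested (-0.42 to 0.45) in grey. The medians of these lists, each with 8 or more tested genes, lie between -0.28 for callosal and upper-layer genes and 0.25 for activity-regulated genes, and no gene shown passed the FDR of 0.2.

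Genes that the study names for these samples were looked up in the members; the study chose part of them on its nuclei or bulk libraries, so their directions are not independent evidence. Of 14 that could be tested out of 17, 4 were above and 10 below 0, with a median of -0.17, and none passed. Mical2, a monooxygenase that disassembles actin, was at 247, 187, 213 and 242 CPM in controls and at 368, 332, 237 and 335 in CUS mice (log2 fold change 0.53, SE 0.15). CUS replicate 3 lay within the controls. Yy1, the zinc finger factor the study examined, was at 72.4, 54.8, 59.7 and 63.7 in controls and at 50.8, 47.1, 61.2 and 48.4 in CUS mice. CUS replicate 3 again lay within the controls, and the log2 fold change was -0.24 with a 95% interval, unadjusted, of -0.66 to 0.18. Ctcf, an insulator protein, had a log2 fold change of -0.20 (-0.58 to 0.18). Among Yy1, Ctcf and cohesin genes, 7 of 9 were below 0, with a median of -0.12, and the cohesin subunit genes Smc1a and Stag2 were at -0.35 and 0.27.

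The receptors for corticosterone did not separate. Nr3c1 was at 142, 190, 162 and 127 CPM in controls and at 104, 180, 145 and 142 in CUS mice (log2 fold change -0.16, 95% interval -0.50 to 0.17). Nr3c2 was at 174, 247, 207 and 268 in controls and at 174, 255, 228 and 225 in CUS mice (-0.02, -0.33 to 0.29). Crhr1, the receptor for corticotropin-releasing hormone, had few UMIs and a log2 fold change of 0.51 (-0.12 to 1.14). Adam23, a partner of LGI1 at the synapse, was at 327, 295, 291 and 312 in controls and at 194, 268, 255 and 275 in CUS mice, all below the controls (-0.29, -0.57 to -0.01). This interval was drawn from the standard error alone, and the edgeR quasi-likelihood test gave Adam23 an unadjusted p of 0.0516. Negr1, an IgLON adhesion molecule, had a log2 fold change of -0.26 (-0.55 to 0.03). Homer1, a scaffold with an activity-induced short form, was at 153, 251, 211 and 236 in controls and at 274, 213, 281 and 285 in CUS mice, with CUS replicate 2 below its group (0.30, -0.01 to 0.61). Crem and Syt1 were at -0.17 and -0.13.

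Whether CUS acted on the members in a way that differed from other nuclei was tested as an interaction, with the mouse as a block. Against all other nuclei, 1 of 5151 genes passed the FDR of 0.2 (0.0194%), and this was Ttr, which encodes transthyretin, the main secretory product of the choroid plexus. Its CUS effect differed by -6.88 on the log2 scale (edgeR FDR 1.07e-08). In members it had 0, 0, 216 and 0 UMIs in the controls, by replicate, and 3, 2, 9 and 12 in the CUS mice. Of the 216 UMIs of control replicate 3, 215 were in 1 nucleus. In all other nuclei Ttr had 13, 27, 156 and 8 UMIs in controls and 289, 1398, 149 and 1838 in CUS mice, of which up to 1628 were in 1 nucleus. Without control replicate 3 no gene passed. Within members the log2 fold change of Ttr was -2.60.

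Against layer 2/3 nuclei 0 of 6127 genes passed (0%), with 375 at an unadjusted p under 0.05, and against layer 6 nuclei 0 of 5364 (0%), with 297. For the interaction with layer 2/3 nuclei edgeR's likelihood ratio test called 4 genes, Atp6v1e1, Npy, Camk2n1 and Gnb4. Within layer 2/3 nuclei, the same test of CUS against control called 14 of 6252 genes at an FDR of 0.2, but a count that passes in one set of nuclei and not in another does not show a difference. Alcam, lower in CUS members by 0.64 on the log2 scale, was at -0.32 in layer 2/3 nuclei and at -0.08 in layer 6 nuclei, and neither difference passed (interaction FDR 0.596 and 0.492, edgeR). For Otud7b the values were -0.76, -0.01 and -0.09, for Necab1 -0.74, -0.27 and 0.05, and for Atf2 -0.58, -0.11 and -0.21, with no interaction passing the FDR of 0.2. For 1700016P03Rik the values were 1.35, 1.09 and 0.67. Mical2 was farther from 0 outside the members, at 0.53, 0.84 and 0.70, of which the 0.84 of layer 2/3 nuclei passed (edgeR FDR 0.0181).

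In the bulk nuclear RNA of the mPFC the named genes were read in other mice and in all cell types together. There, fewer nuclei of a type and less RNA per nucleus cannot be told apart. Bulk libraries held 26188825 to 30525015 reads, and 606 of 18394 genes passed an FDR of 0.05 (3.29%), 214 higher (1.16%) and 392 lower (2.13%). Of the 10 genes without overlap in members that had the smallest p, 10 were measured in bulk, 6 had the same sign and 2 passed. Alcam was lower in bulk too, with a log2 fold change of -0.31 (SE 0.08, edgeR FDR 0.0465). 1700016P03Rik went the other way in bulk, at -0.47 (SE 0.11, FDR 0.0368), against 1.35 in the members. The transcript overlaps Ovca2 on the opposite strand. The bulk libraries were made with a stranded kit, but whether their reads were counted by strand is not given in the sources used here. Mical2 had a log2 fold change of 0.53 in both, with a bulk FDR of 0.0476. Homer1 was at -0.35 in bulk (FDR 0.0402) and at 0.30 in members, and Grik4 at 0.59 in bulk (FDR 0.0397) and at -0.68 in members. Of the 85 genes picked by the naming rule that were measured in bulk, 14 passed there, 9 with the same sign as in members and 5 with the opposite sign. Some of these, such as Alcam, Homer1, Adam23 and Nr3c2, are genes the study reports as changed in these same bulk libraries. The tally is therefore no independent check of the members. Calls of the same sign included Htr2c (-0.69 in bulk), Vgf (0.59), Adam23 (-0.33) and Nr3c2 (-0.23 in bulk, only -0.02 in members). Nr4a2 (-1.76 in bulk, FDR 0.00107, and 0.35 in members) and Btg2 (-1.07 in bulk) were of opposite sign. These opposite signs set mPFC tissue, with all its cell types, beside nuclei from neocortex. All other nuclei of the same neocortex mice were not on the bulk side either for 1700016P03Rik (0.92), Homer1 (0.30) and Nr4a2 (0.14). Grik4 was at 0.0016 there, and none of these passed the FDR of 0.2. The bulk mice were others, of another age and taken after behavioural tests, and the difference between the 2 readouts was not tested. The number of bulk calls depended on single mice, from 133 without control replicate 2 to 1508 without control replicate 3.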

How the data were processed

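The nuclei files deposited by the authors hold whole-number UMI counts per gene and barcode, for 5000 barcodes per mouse, not normalized and before any filter on nuclei. Reads had been mapped to mm10 with Gencode annotation, and exonic and intronic reads on the annotated strand were counted. The bulk files deposited by the authors hold read counts per gene, not normalized. The submitters' processing notes name STAR, Seurat and edgeR, and bulk annotation is not given in the sources used here. The study states that the nuclei were run in 2 batches, each with 2 control and 2 CUS mice. It reports a marked batch effect on its tests of differential expression, and fitted group and batch with edgeR's likelihood ratio test. The labels give no batch per mouse, so no fit had a batch term and within-batch values could not be given.

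From these counts, barcodes were filtered, members were found by the rule, and UMIs were summed per mouse. The sums went into edgeR 4.0.16 under R 4.3.3 (quasi-likelihood test, TMM factors, summed UMIs above 10% of the number of members, rule genes not tested, FDR 0.2), with the mouse as a block for interactions. Bulk counts were tested likewise with filterByExpr and an FDR of 0.05. Shares and depths of the mice were compared with an exact permutation test. Alternatives were the likelihood ratio test, DESeq2 1.42.0, other size factors and filters, other gates (at least 1000 genes, doublet score at most 0.2, at least 4 rule genes, Slc17a7 detected, no markers of another type), limma 3.58.1 for interactions with a replicate block, and each mouse left out. Fits were tested on simulated data.

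Replicate numbers do not pair the nuclei libraries: deviations of same-numbered mice had correlations of 0.0431, -0.0776, 0.0703 and -0.0868 over 7202 genes. Between control and CUS mice on the same side of the split by mitochondrial share, 8 of 8 correlations were positive (up to 0.179), and across the split 7 of 8 were negative (down to -0.171). No 2 libraries of a group were the same within sampling noise (chi-square per degree of freedom 1.57 to 3.35). The nuclei libraries came from separate mice by the study's text, housed in groups, and the labels tie no mouse to a cage. Depth was 6074138 to 15459579 UMIs per mouse in nuclei and 26188825 to 30525015 reads in bulk.

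Genes named are the rule genes, the 5 per direction with the smallest p among genes without overlap, the 3 of each list with the largest change, those the study names, the 10 with the highest ratio in members, and interaction calls. Others were chosen after their values were seen. Some genes that this rule names are not reported here. The members and all lists were chosen with earlier results of these data known.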

Additional observations from a re-analysis of the deposited data

Results flagged for a closer look

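In 74 groups of 4 mice checked, 3 had a mouse whose gap to the nearest other mouse exceeded Dixon's critical value, and chance gives about 1 such group in 20. In members, Tcerg1l, a rule gene, was at 48.2 CPM in control replicate 2 and at 78.8 to 80.7 in the other controls. Ttr was at 263 CPM in control replicate 3, where 215 of its 216 UMIs came from 1 nucleus, and at 0 in the other controls. Homer1 was at 213 CPM in CUS replicate 2 and at 274 to 285 in the other CUS mice. The CUS effect on Ttr differed by -6.88 on the log2 scale between the layer 5 projection nuclei and all other nuclei, by the interaction test, and that call was absent without control replicate 3.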

How the results depend on the processing

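The difference in the share of members was negative in all alternatives but 1, between -0.110 and -0.538 points with a mouse left out. It was 0.0633 after thinning to 1000 UMIs (reversed), and it passed only as a share of Slc17a7 nuclei (-2.15 points). No alternative gave the difference in UMIs per member a p under 0.05 (-485 to -9.38 with a mouse left out). Against 0 calls in members, the likelihood ratio test gave 1, no filter on low counts 8, leaving out a mouse 0 to 5, and, chosen after seeing the data, the likelihood ratio test with a term for mitochondrial share 23, the 4 mice with low mitochondrial share 7 and the 4 with high share 3. All other alternatives gave 0. For the interaction with all other nuclei (1 call), the likelihood ratio test gave 12, no filter 14, the replicate block (limma) 0, at least 4 rule genes 3 (Lsamp, Nnat and Mlf2), and leaving out a mouse 0 to 4, with 0 only without control replicate 3. With layer 2/3 nuclei (0 calls) these were 4 for the likelihood ratio test, 2 without TMM factors (Atp6v1e1 and Camk2n1), 6 without a filter, 3 with at least 4 rule genes (the same names as above) and 0 to 2 with a mouse left out. With layer 6 nuclei (0 calls) they were 7 without a filter, 2 with at least 4 rule genes (Lsamp and Nnat) and 0 to 2 with a mouse left out. In bulk (606 calls) the likelihood ratio test gave 1330, DESeq2 1402, the replicate block 233 and leaving out a mouse 133 to 1508. The causes were not tested.

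Of 55 named genes, 47 kept their sign in every alternative. Nr3c2 turned positive with a doublet score of at most 0.2 (0.0735), at least 4 rule genes (0.0647), Slc17a7 detected (0.0639) and without control replicate 2, control replicate 4 or CUS replicate 1 (-0.107 to 0.0707 over all mice left out). Yy1 was at 0.0765 with at least 4 rule genes, and Fkbp5 at -0.0011 without nuclei with markers of another type. In the 4 mice of low mitochondrial share Camk2a was at -0.00031, Calb1 at 0.0200, Nr3c1 at 0.0594 and Ttr at 4.31, and in those of high share Per1 was at -0.42. Same-numbered nuclei libraries share only a number, and the replicate block left 0 calls in members, as without it. In bulk, the fit paired by number gave 233 calls on the 4 numbers both groups share, against 140 on the same mice without the pairing. The median gene tested in members had 246 UMIs over 8 mice, with a median standard error of 0.23 on the log2 scale.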
